A study of Mus musculus with 18 samples.

Results

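The 69 genes described here encode ubiquitin-conjugating enzymes, their close relatives and the main families of deubiquitinating enzymes. They are all genes on the array whose symbol starts with Ube2, with Usp followed by a digit, or with Uchl, taken from probe sets that carry 1 gene symbol, and they are 69 of the 12393 genes with such a probe set. By role, 22 encode ubiquitin-conjugating enzymes, 3 encode conjugating enzymes that carry ubiquitin-like proteins (Ube2f, Ube2l6 and Ube2z) and 2 encode catalytically inactive Ube2 variants (Ube2v1 and Ube2v2). Another 39 are named as ubiquitin-specific proteases and 3 as ubiquitin C-terminal hydrolases. These last 2 roles follow the gene symbol alone, so not every product in them need be active or act on ubiquitin. Ube2z also carries ubiquitin, and it is counted with the enzymes of ubiquitin-like proteins throughout. Each gene was given 1 value per array, from its probe set of highest mean log2 signal, and 59 of the 69 genes were bright enough to be tested.

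RNA was measured in motor neurons cut out by laser from lumbar spinal cord, 1000 neurons per animal, with 1 array for each mouse. Per the labels the cells were picked from frozen sections of 10 µm stained with toluidine blue. The G93A mice carried the mutant human SOD1 G93A transgene, which causes motor neuron disease and models inherited amyotrophic lateral sclerosis, and the control mice were their non-transgenic littermates. The 6 groups, of 3 animals each, were G93A and control at 60 days, G93A and control at 90 days, and G93A and control at 120 days. The labels give neither the strain, the sex and the transgene promoter of the mice nor their disease stage, and they give each array a mouse of its own. The values are array signals on a linear scale, so the levels of different probe sets are not set against each other.

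Ubiquitin is attached to proteins in a relay: an activating enzyme (E1) charges it, a conjugating enzyme (E2, the Ube2 genes) carries it, and a ligase (E3) directs it to the substrate. Chains of one kind send proteins to the proteasome, and chains of other kinds act in signalling and DNA repair. Deubiquitinating enzymes, among them the Usp and Uchl families, cut ubiquitin off again, trim or edit chains and keep the pool of free ubiquitin filled. Aggregates that stain for ubiquitin are a classical feature of motor neurons in amyotrophic lateral sclerosis and in SOD1 mutant mice.

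The motor neuron label was checked against 10 marker genes, of which 9 had a value. The neurofilament genes Nefl, Nefm and Nefh and the peripherin gene Prph were above the array's median signal on all 18 arrays. Isl1 exceeded it on 9, Mnx1 on 8 and Ret on 13, the acetylcholine transporter gene Slc18a3 on 0 and the choline transporter gene Slc5a7 on 2. Some markers of other cells were also above it on all 18 arrays, among them Mbp and Cnp (oligodendrocytes), Gja1 and S100b (astrocytes) and Csf1r and C1qb (microglia and macrophages). The check therefore does not show that the captures held motor neurons only. Every array had a trimmed mean signal of about 100 (100.04 to 100.06), so the arrays had been scaled to a common level before deposit. The spiked hybridization controls averaged 9.47 log2 units in G93A and 11.15 in control arrays at 60 days, 9.09 in G93A and 9.83 in control arrays at 90 days, and 11.62 in G93A and 11.64 in control arrays at 120 days. The 2 arrays least like the rest were control 60 days replicates 3 and 2, with mean correlations of 0.613 and 0.633 with the other arrays. The samples are bulk captures, so fewer cells of a type and less RNA per cell cannot be told apart. The summed marker signals given below are on the linear scale and are weighted towards the brightest gene of each list. By median signal these were Nefl (14275.9) for motor neurons, Mbp (11519.85) for oligodendrocytes, Csf1r (1930.8) for microglia and macrophages and Gja1 (1763.1) for astrocytes.

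Of the 69 genes, 21 were above the array's median signal on all 18 arrays, 38 on at least 3 but not all, 3 on 1 or 2 and 7 on none. The 21 included Ube2a and Ube2b, the relatives of yeast Rad6 that act in DNA damage tolerance, Ube2d2a and Ube2e1, which serve many ligases, Usp7, the protease of the p53 regulator Mdm2, and Usp14, which sits on the proteasome. The 10 genes that were not tested were Ube2d2b, Ube2l6, Ube2s, Ube2t, Usp15, Usp18, Usp22, Usp26, Usp38 and Usp42, and Ube2d2b, for example, spanned signals of 0.7 to 55.8. The genes tested were therefore those with a measurable signal in some group, not the whole family. Uchl3, Usp30, Ube2l3 and Ube2m were not analysed here.

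**Figure D1:**
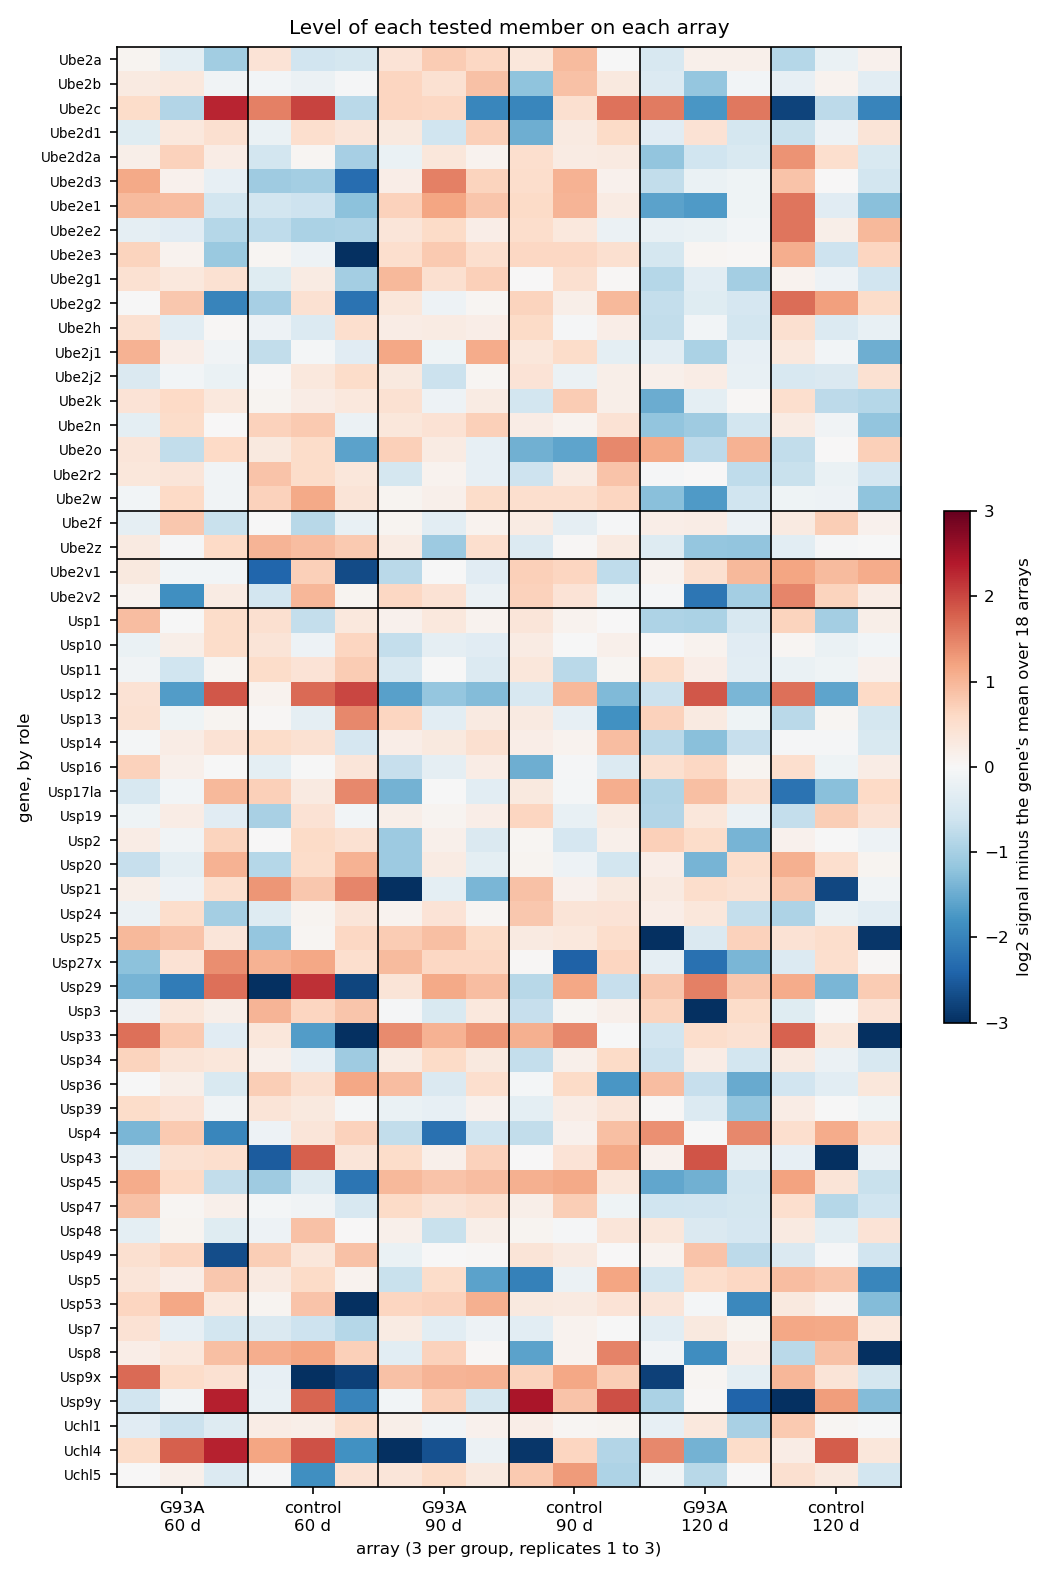
Log2 signal of each of the 59 tested genes on each of the 18 arrays, minus the gene's own mean over the 18 arrays; columns are arrays in groups of 3, rows are genes ordered by role, and the colour scale runs from -3 to 3. Control arrays at 60 days hold the lowest values of Usp9x and Ube2d3, and G93A arrays at 120 days are pale to dark blue for many Ube2 rows.

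Over the 6 groups, 9 of the 59 tested genes differed at an adjusted p below 0.05 in limma's F test with Benjamini-Hochberg adjustment over all probe sets, beside 9.52% of all genes tested. They were the conjugating enzyme genes Ube2d3, Ube2e1, Ube2e2, Ube2g1 and Ube2w and the protease genes Usp7, Usp9x, Usp14 and Usp45, with adjusted p-values between 0.00637 (Ube2e2) and 0.0444 (Usp14). As a share of the tested genes this was 15.3%, and 27.1% passed an unadjusted p of 0.05, beside 25.8% of all genes. The ubiquitin C-terminal hydrolases, the inactive variants and the conjugating enzymes of ubiquitin-like proteins held 0 of these 9 genes. Which groups stood apart is given below, age first, because the 60-day control arrays enter both the age and the genotype comparisons.

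In control mice, 6 of the 59 genes rose with age and 0 fell (120 minus 60 days), beside 7.03% of all genes called, 4.12% higher and 2.9% lower. The 6 were the conjugating enzyme genes Ube2e2, Ube2d3 and Ube2g2, the inactive variant Ube2v1 and the protease genes Usp7 and Usp9x. The sizes ran from 1.51 log2 units (Usp7) to 2.53 (Ube2v1), and the share called was 10.2%. These counts use 1 probe set per gene. The dimmest tested probe set of Usp45 was called lower, at -3.535 log2 units (limma adjusted p = 0.019), while the one used gave 1.53 (limma adjusted p = 0.0721). The median of the 59 genes was -0.10 and 40.7% were above 0, beside -0.22 and 41.8% over all genes. At an unadjusted p below 0.05, 17 genes (28.8%) differed, 10 higher (16.9%) and 7 lower (11.9%), beside 24.7%, 10.8% and 13.8% of all genes. Arrays did not overlap in the upward direction for 6 genes (10.2%) and in the downward direction for 7 (11.9%), beside 9.72% and 18% of all genes.

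Ube2e2 encodes a conjugating enzyme with an extended N-terminus. Its signal was 1044.7, 386.7 and 674.8 in controls at 120 days, against 201.7, 177.1 and 179.8 in controls at 60 days. Every 120-day control array lay above every 60-day one, and the 90-day controls lay between, at 493.3, 428.1 and 299.9, overlapping the 120-day range. The rise of 1.80 ± 0.33 log2 units (SE) had an adjusted p of 0.0018 in limma.

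Usp7 followed, with signals of 1051.9, 1039.5 and 584 in controls at 120 days, against 347.8, 304.9 and 258.6 in controls at 60 days. The lowest 120-day array stood well above the highest 60-day array. The rise was 1.51 ± 0.31 log2 units (limma adjusted p = 0.00558). A second tested probe set of Usp7, of lower signal, gave -1.14 for the same contrast, with an adjusted p of 0.461, so the probe sets differed in sign.

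Ube2v1 lacks the catalytic cysteine and pairs with Ube2n to build chains used in signalling. Its signal was 241, 207.4 and 229.2 in controls at 120 days, against 20.4, 174.7 and 16.7 in controls at 60 days. The groups did not overlap, but 1 of the 60-day arrays (replicate 2) was close to the older animals and the other 2 were far below. Ube2v1 rose by 2.53 ± 0.62 log2 units (limma adjusted p = 0.0163).

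Ube2g2, the conjugating enzyme of endoplasmic reticulum-associated degradation, had signals of 421.2, 309.5 and 193.3 in controls at 120 days, against 66.9, 182.4 and 28.4 in controls at 60 days. The lowest older array and the highest younger array nearly met. The rise was 2.06 ± 0.59 log2 units (limma adjusted p = 0.0364). Ube2d3, a conjugating enzyme that works with many ligases, read 368.9, 205.5 and 137.9 in controls at 120 days, against 97.8, 100.9 and 41.9 in controls at 60 days. All older arrays were above all younger ones, and the rise was 1.55 ± 0.45 log2 units (limma adjusted p = 0.039). Of the other 4 tested probe sets of Ube2d3, the one of nearly the same mean level gave -0.44 for this contrast and the rest gave 0.43, 2.37 and -0.52, so the probe sets differed in sign. Their mean with the first was 0.68 in the fit named Ube2d3, 120 minus 60 days in controls (adjusted p = 0.344).

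Usp9x, a large X-linked protease, was the exception in that its groups overlapped. Its signal was 259.7, 168.6 and 89.4 in controls at 120 days, against 109.1, 16.2 and 18.5 in controls at 60 days. The first 60-day array lay above the lowest 120-day array, and the other 2 were below their arrays' median signals, which ran from 58 to 64 in that group. Usp9x rose by 2.30 ± 0.66 log2 units (limma adjusted p = 0.0362).

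These 6 calls depended on which arrays entered. The 2 least correlated arrays are both 60-day controls. Without them 1 control array is left at 60 days, so a count without them is not given. With the ratio between the Gapdh probe sets at the 3' and 5' ends (log2) as a covariate, 0 of the 59 genes were called. Leaving out 1 array at a time gave 2 to 9 calls, with 2 without control 60 days replicate 3 and 2 without control 120 days replicate 1. The Gapdh ratio, which compares signal at the 3' and 5' ends of 1 transcript, averaged 4.48 in controls at 120 days and 3.36 in controls at 60 days. The summed signal of the 7 measured oligodendrocyte markers ran from 22975.4 to 39898.6 in controls at 120 days and from 11433.9 to 13814.2 in controls at 60 days, with 7 of 7 above 0 and 2 called higher, and the lowest signal among these markers was 6.7 (Mog). The part of either measure in the 6 calls was not tested.

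The sequences just before the transcription start are printed for the 4 of these 6 genes that the RefSeq promoter table (GRCm38.p6) holds. The 6 genes were picked because they were called higher with age in controls, so their shared direction is not a separate result. Each runs 5′ to 3′ on the gene's strand over the 250 bases before the listed start, and capitals mark the motifs found. The windows are chr3:135437982-135438231 on the plus strand for Ube2d3, chr14:18893772-18894021 on the minus strand for Ube2e2, chr2:167632006-167632255 on the minus strand for Ube2v1 and chr16:8738343-8738592 on the minus strand for Usp7. The windows of Ube2e2 and Usp7 lie inside the annotated span of their genes, which extend beyond the listed start. Ube2g2 and Usp9x are named only.
Ube2d3: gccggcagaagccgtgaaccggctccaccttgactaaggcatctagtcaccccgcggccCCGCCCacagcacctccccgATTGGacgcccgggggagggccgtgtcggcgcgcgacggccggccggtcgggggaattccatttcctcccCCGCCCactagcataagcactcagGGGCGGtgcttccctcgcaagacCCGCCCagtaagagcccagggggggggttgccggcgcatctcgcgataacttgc
Ube2e2: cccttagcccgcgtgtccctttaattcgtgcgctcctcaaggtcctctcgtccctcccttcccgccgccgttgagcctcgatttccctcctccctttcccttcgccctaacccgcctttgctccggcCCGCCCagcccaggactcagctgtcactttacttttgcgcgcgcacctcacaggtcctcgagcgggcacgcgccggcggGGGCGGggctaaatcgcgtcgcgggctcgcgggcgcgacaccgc
Ube2v1: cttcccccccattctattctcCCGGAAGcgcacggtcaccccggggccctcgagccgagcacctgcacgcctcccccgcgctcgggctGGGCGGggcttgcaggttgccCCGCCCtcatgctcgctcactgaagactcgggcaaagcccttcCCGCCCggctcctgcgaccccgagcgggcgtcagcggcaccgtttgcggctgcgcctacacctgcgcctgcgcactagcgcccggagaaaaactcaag
Usp7: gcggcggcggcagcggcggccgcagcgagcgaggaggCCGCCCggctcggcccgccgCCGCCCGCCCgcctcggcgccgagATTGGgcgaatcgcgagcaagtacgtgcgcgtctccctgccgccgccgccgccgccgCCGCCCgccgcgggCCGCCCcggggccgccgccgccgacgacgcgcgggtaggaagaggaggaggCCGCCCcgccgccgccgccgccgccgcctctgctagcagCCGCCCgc

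The motifs searched, on both strands and with overlaps allowed, were the GC box GGGCGG, the CCAAT box CCAAT, an ETS motif CCGGAAG and a cyclic AMP response element TGACGTCA. A GC box was present in all 4 windows, with 4 copies in Ube2d3, 2 in Ube2e2, 3 in Ube2v1 and 7 in Usp7. A CCAAT box was in the Ube2d3 and Usp7 windows, and an ETS motif was in the Ube2v1 window. The GC content was 69.6% in Ube2d3, 68.4% in Ube2e2, 70.8% in Ube2v1 and 85.2% in Usp7. Among the 52 of 69 family genes found in the table, 34 (65.4%) had a GC box, against 33% of 27025 promoter windows of the same length. An ETS motif was in 19.2% of the family's windows and 7.1% of all windows. A CCAAT box was in 30.8% and 34.5%, and a cyclic AMP response element in 1.9% and 1.6%. These matches describe letters and not bound sites.

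In G93A mice, 0 of the 59 genes passed the adjusted threshold between 120 and 60 days (limma), beside 2.26% of all genes, 1.13% in each direction. This count uses 1 probe set per gene. A second tested probe set of Usp47, of lower signal, passed at -2.56 log2 units (limma adjusted p = 0.0162), while the one used gave -0.93 (limma adjusted p = 0.179). At an unadjusted p below 0.05, 14 genes differed (23.7%, beside 17.3% of all genes). Of these, 13 genes were lower and 1 was higher at 120 days, which is 22% and 1.69% of the list, beside 10.1% and 7.19% of all genes. The median of the 59 genes was -0.31, with 41 of 59 below 0, beside -0.11 over all genes. The summed microglia and macrophage markers ran from 11899.2 to 21161 in G93A mice at 120 days and from 2625.8 to 3478 in G93A mice at 60 days, with 9 of the 10 tested above 0 and 3 called higher. The oligodendrocyte markers summed to between 25981.2 and 39622.9 at 120 days and between 12516.1 and 20590.9 at 60 days, with 5 of 7 above 0 and 0 called. The Gapdh ratio averaged 4.94 at 120 days and 4.14 at 60 days in G93A mice, and the part of these measures in the lower values was not tested. In 12 of the 59 genes (20.3%) every 120-day G93A array was below every 60-day one, and in 1 gene (1.69%) above, beside 11.7% and 11.2% of all genes.

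Among the probe sets used, that of the proteasome-associated protease gene Usp14 had the smallest p of this comparison. Its signal was 215, 158 and 233.5 in G93A mice at 120 days, against 361.4, 437 and 505.3 in G93A mice at 60 days. The groups did not overlap, and the difference was -1.11 ± 0.32 log2 units with an adjusted p of 0.0685 (limma). Ube2w, which attaches single ubiquitins to the N-termini of proteins, read 65.8, 48.7 and 103.7 in G93A mice at 120 days, against 148.8, 238 and 146.8 in G93A mice at 60 days. These groups did not overlap either, at -1.32 ± 0.39 log2 units and an adjusted p of 0.0738 (limma). In controls Ube2w differed in the same direction by -1.23 ± 0.39 log2 units, with signals of 144.6, 141.4 and 68.9 at 120 days, against 253.4, 347.7 and 206.1 at 60 days and an adjusted p of 0.0548 (limma). A second tested probe set of Ube2w, of lower signal, gave 0.59 in G93A mice (limma adjusted p = 0.723) and -0.55 in controls (limma adjusted p = 0.656). The probe sets thus differed in sign in G93A mice. Ube2g1, which extends ubiquitin chains, differed by -1.13 ± 0.34 in G93A mice (limma adjusted p = 0.0854) and by 0.17 ± 0.34 in controls (limma adjusted p = 0.799).

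The genotype comparison at 60 days asks what differs in G93A motor neurons at the youngest age sampled. Usp9x was the 1 gene of the 59 that changed, and it rose, beside 0.659% of all genes called (0.629% higher and 0.0299% lower). Its signal was 418.3, 190.9 and 178.4 in G93A mice, against 109.1, 16.2 and 18.5 in controls. All G93A arrays were above all control arrays. The difference was 2.92 ± 0.66 log2 units with an adjusted p of 0.0337 (limma). Control arrays 2 and 3 lay far below their array medians of 62.6 and 64, and whether they were above background was not tested, so the size of the difference has no exact meaning as a fold.

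The Usp9x call turned on a few arrays and on 1 probe set. It was lost without G93A 60 days replicate 1 (adjusted p = 0.243), without G93A 60 days replicate 2 (0.08), without control 60 days replicate 2 (0.112) and without control 60 days replicate 3 (0.168), in the fits named Usp9x, G93A minus control at 60 days. Without control replicates 2 and 3 together the difference was 1.15 log2 units. That fit leaves 1 control array at 60 days, the one with the highest Usp9x signal, so it cannot decide whether the call holds. Of its 3 tested probe sets, the other 2 gave 0.28 and 1.57 at 60 days, and their mean with the first was 1.59 (adjusted p = 0.175). With the hybridization-control level as a covariate the difference was 1.91 (adjusted p = 0.665). Usp9y is a close Y-linked relative, and cross-hybridization between them was not tested.

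At an unadjusted p below 0.05, 9 of the 59 genes were higher in G93A mice at 60 days and 0 were lower, which is 15.3% of the list higher, beside 8.1% of all genes higher and 4.87% lower. Ube2d3 was the nearest to the threshold. Its signal was 444.6, 222.5 and 172.7 in G93A mice, against 97.8, 100.9 and 41.9 in controls, so that the groups did not overlap. The difference was 1.79 ± 0.45 log2 units with an adjusted p of 0.0649 (limma). Its second probe set, of nearly the same mean level, gave -0.84 for Ube2d3 (unadjusted p = 0.0302, limma adjusted p = 0.326), and the other 3 gave 0.68, 2.06 and -0.48. Ube2e1 (1.24 ± 0.53), Ube2d2a (0.86 ± 0.38) and Ube2g1 (0.78 ± 0.34) were also without overlap, with limma adjusted p-values between 0.314 and 0.331. Usp33, which acts on the axon guidance receptor Robo1, differed by 2.71 ± 1.16 log2 units, but its arrays overlapped (225, 125 and 57.4 in G93A mice, against 91.3, 22.7 and 2.8 in controls) and its adjusted p was 0.315 (limma).

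Arrays did not overlap in the upward direction for 7 genes and in the downward direction for another 7, each 11.9% of the list, beside 8.19% and 10.8% of all genes. The higher ones were Ube2d2a, Ube2d3, Ube2e1, Ube2g1, Usp9x, Usp34 and Usp47, and the lower ones Ube2j2, Ube2z, Uchl1, Usp3, Usp11, Usp21 and Usp36. Uchl1 is a ubiquitin hydrolase that is among the abundant proteins of neurons. Uchl1 signals were 73.9, 59.8 and 71.7 in G93A mice at 60 days, against 109.3, 105.5 and 135.3 in controls. The G93A arrays were all lower, by 0.77 ± 0.43 log2 units on average, with an adjusted p of 0.48 (limma). The median difference of the 59 genes at 60 days was 0.12 (33 of 59 above 0), beside -0.07 over all genes, and leaving out 1 array at a time moved it between -0.002 (without control 60 days replicate 3) and 0.15. The motor neuron markers summed to between 7445.1 and 19106.4 in G93A mice and between 18818.2 and 28114.4 in controls at this age, with 6 of the 7 tested below 0 and 0 called. The oligodendrocyte markers summed to between 12516.1 and 20590.9 in G93A mice and between 11433.9 and 13814.2 in controls, with 6 of 7 above 0 (median 1.06), 3 of them without overlap and 0 called. The 9 astrocyte markers summed to between 2933.3 and 5270.9 in G93A mice and between 1953.9 and 3357.7 in controls, with 6 of 9 above 0 (median 0.65) and 0 called, and their lowest signal was 4 (Aldh1l1). The sums of both lists overlapped between genotypes. Of the 10 tested microglia and macrophage markers 1 was called higher, and 4 of 10 were above 0. The Gapdh ratio averaged 4.14 in G93A mice and 3.36 in controls. The part of these measures in the results at 60 days was not tested.

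**Figure D2:**
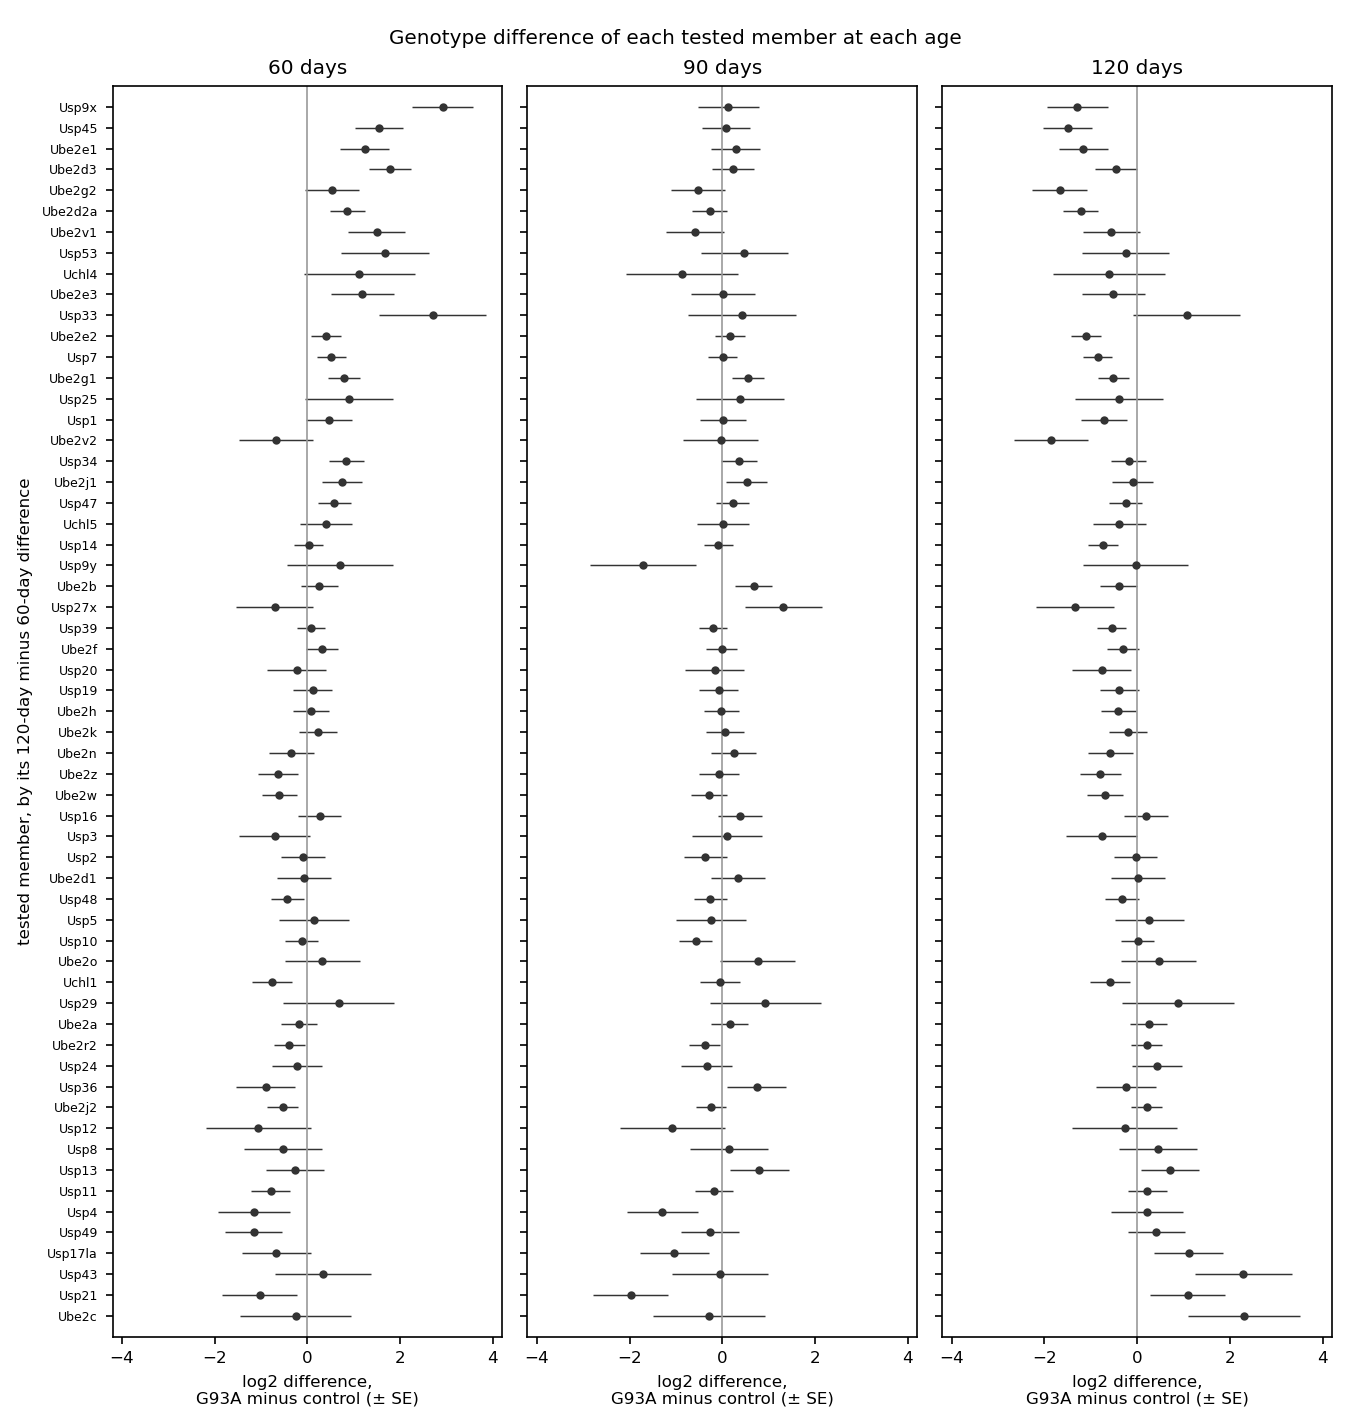
Log2 difference, G93A minus control, of each of the 59 tested genes at 60, 90 and 120 days, as points with bars of 1 standard error from the limma fit (3 arrays per group); genes are ordered by how much the difference fell between 60 and 120 days. The upper rows, led by Usp9x and Usp45, lie right of 0 at 60 days and mostly left of 0 at 120 days, while at 90 days Usp9x and Usp45 lie at 0.13 and 0.08.

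At 90 days 0 of the 59 genes passed the adjusted threshold, as for all genes (0%). At an unadjusted p below 0.05 the count was 1 gene (1.69%), beside 4.73% of all genes, 2.55% higher and 2.18% lower. Arrays did not overlap for Ube2g1, Usp25 and Usp53, which were higher in G93A mice, and for Usp9y, Usp10 and Usp21, which were lower, each 5.08% of the list, beside 5.74% and 5.82% of all genes. The gene with the small p was Usp21, a histone deubiquitinase, with signals of 5.3, 34.3 and 16.3 in G93A mice, against 76.6, 45.7 and 51.4 in controls. The G93A arrays were all lower, at -1.98 ± 0.81 log2 units and an adjusted p of 0.997 (limma), and their values were below the array median. Usp9x signals were 237.3, 264.7 and 269 in G93A mice at 90 days, against 206.8, 288.6 and 216.6 in controls, which overlapped closely. Usp45 signals likewise overlapped, at 289.2, 267.2 and 282.8 in G93A mice, against 307.8, 323.6 and 187.2 in controls. Median differences were -0.01 for the 59 genes and -0.01 for all genes. The Gapdh ratio averaged 4.39 in G93A mice and 3.25 in controls at 90 days, and its part in these results was not tested.

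At 120 days 0 of the 59 genes passed the adjusted threshold, beside 0.0299% of all genes. At an unadjusted p below 0.05, 8 genes were lower in G93A mice and 1 was higher, which is 13.6% and 1.69% of the list, beside 6.25% lower and 5.69% higher of all genes. The median of the 59 genes was -0.31 (39 of 59 below 0), beside 0.07 over all genes. It was -0.15 without control 120 days replicate 1 and -0.50 without control 120 days replicate 3, the ends of the range when 1 array was left out. Lower values were seen in most roles: 13 of 19 ubiquitin-conjugating enzymes, 2 of 2 conjugating enzymes of ubiquitin-like proteins, 2 of 2 inactive variants, 3 of 3 hydrolases and 19 of 33 ubiquitin-specific proteases. All 3 G93A arrays were below all 3 control arrays in 7 genes (11.9%) and above them in 0, beside 6.72% and 9.42% of all genes.

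Those 7 genes were Ube2d2a, Ube2e2, Ube2g2, Ube2v2, Ube2z, Usp7 and Usp14. Ube2e2 had the smallest p of these 7, with signals of 290.5, 296.2 and 322.1 in G93A mice, against 1044.7, 386.7 and 674.8 in controls. The G93A arrays were close together and the control arrays spread widely above them. The difference was -1.10 ± 0.33 log2 units with an adjusted p of 0.178 (limma). A second tested probe set of Usp47, of lower signal, gave a smaller p, at -2.16 log2 units (limma adjusted p = 0.121). The Usp47 probe set used gave -0.24 (limma adjusted p = 0.827). Ube2d2a, a broadly acting conjugating enzyme, read 140.3, 212.6 and 233 in G93A mice, against 819, 452 and 234.5 in controls. Its highest G93A value and lowest control value almost met, at -1.21 ± 0.38 log2 units (limma adjusted p = 0.197).

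Ube2g2 signals were 81.2, 103.5 and 93.1 in G93A mice at 120 days, against 421.2, 309.5 and 193.3 in controls. Its groups were clearly apart, at -1.67 ± 0.59 log2 units, though the adjusted p was 0.25 (limma). Usp7 read 375.2, 577 and 498.2 in G93A mice, against 1051.9, 1039.5 and 584 in controls, a difference of -0.85 ± 0.31 log2 units (limma adjusted p = 0.266). Usp14 read 215, 158 and 233.5 in G93A mice, against 366.5, 369 and 273.4 in controls, a difference of -0.74 ± 0.32 log2 units (limma adjusted p = 0.349). A second probe set of Usp14 gave -0.33 and the dimmest gave 1.09, so that the mean over its probe sets was 0.01.

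Ube2v2, the second partner of Ube2n, read 31.8, 7.3 and 16 in G93A mice at 120 days, against 89.5, 51.7 and 38 in controls. Its G93A values were all below the array medians of 52 to 56, and the difference was -1.86 ± 0.80 log2 units (limma adjusted p = 0.351). Ube2z, which is charged by the activating enzyme Uba6, read 86.1, 50.1 and 49.6 in G93A mice, against 91.1, 110 and 111 in controls. The difference was -0.79 ± 0.43 log2 units (limma adjusted p = 0.478). Among the genes whose arrays overlapped, Usp45, which acts on a DNA repair nuclease, differed most clearly in G93A mice, by -1.50 ± 0.52 log2 units (limma adjusted p = 0.241). Usp43 was the 1 gene higher at an unadjusted p below 0.05, at 2.28 ± 1.04 log2 units and an adjusted p of 0.378 (limma), and 1 of its control arrays read 1.6 while the others read 34.1 and 36.2.

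**Figure D3:**
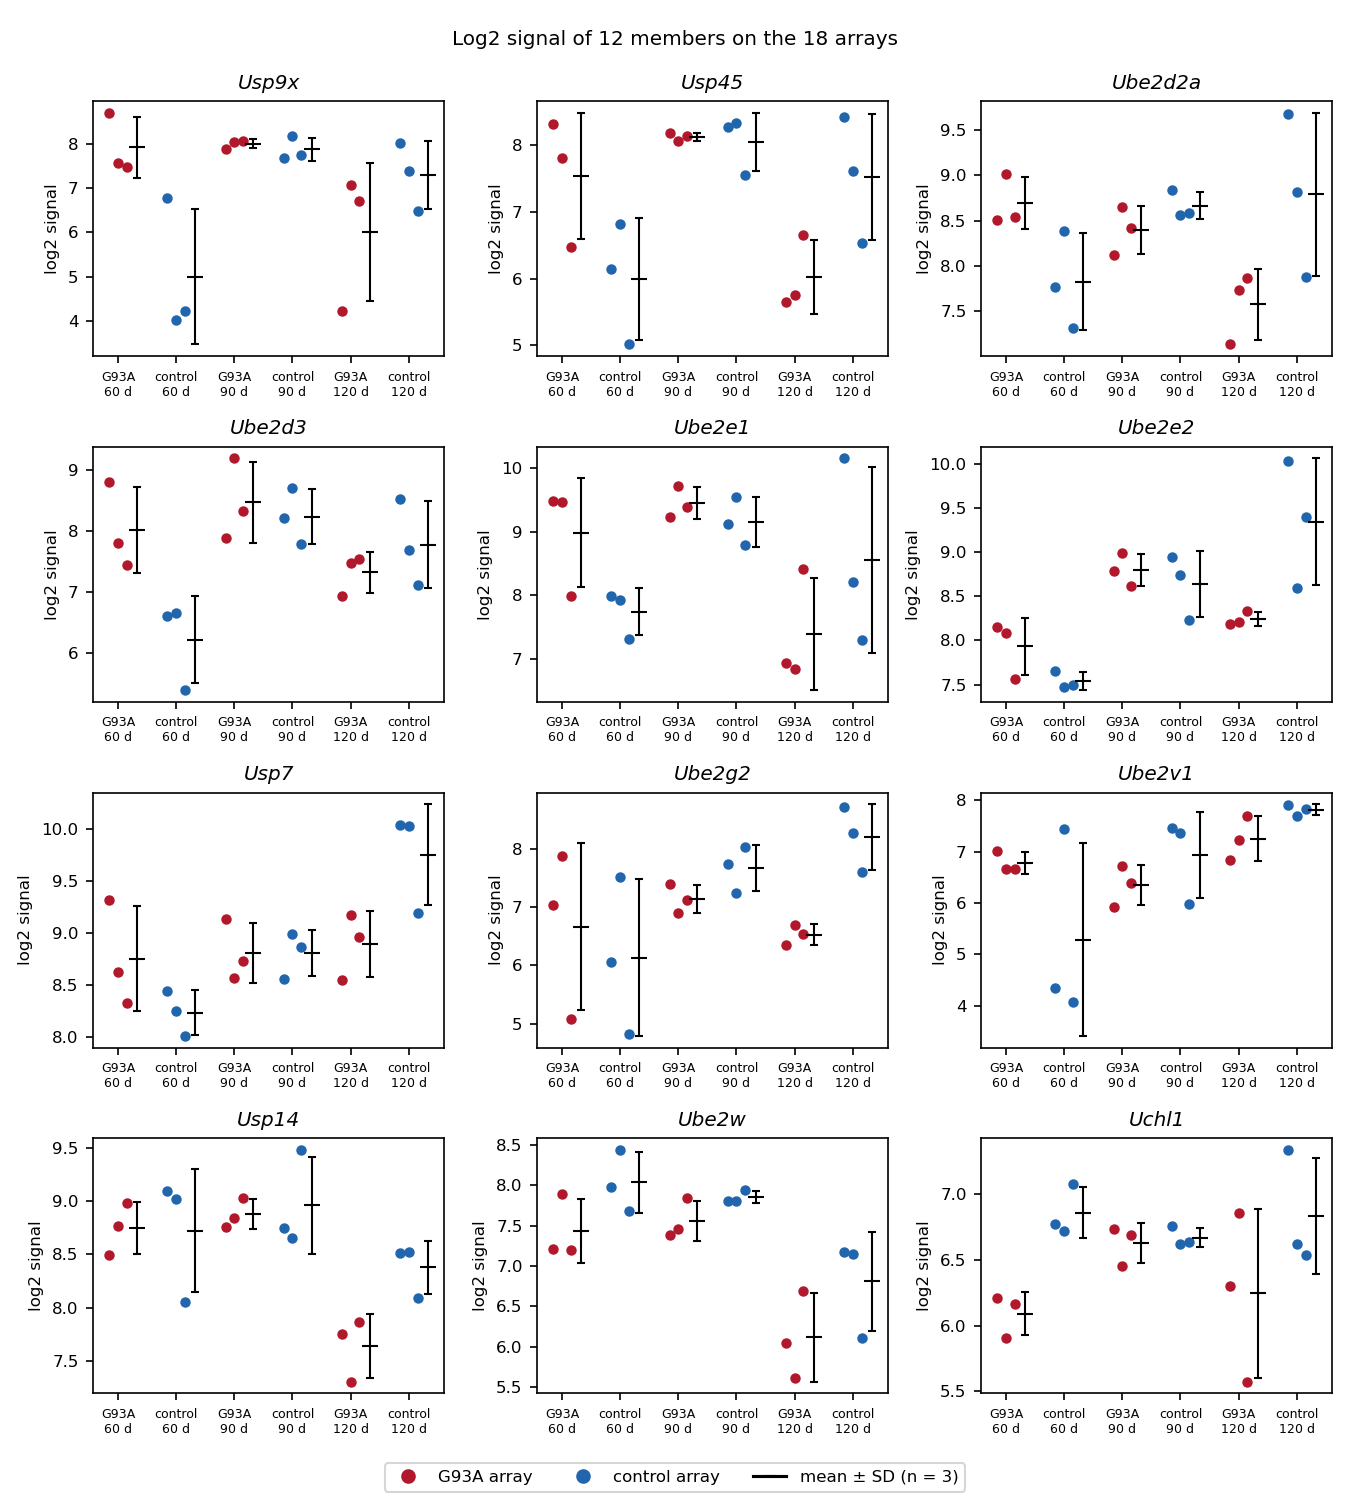
Log2 signal on each of the 18 arrays for Usp9x, Usp45, Ube2d2a, Ube2d3, Ube2e1, Ube2e2, Usp7, Ube2g2, Ube2v1, Usp14, Ube2w and Uchl1; points are arrays, bars are the mean ± SD of 3 arrays, and each panel has its own scale. Usp9x, Ube2d3 and Ube2v1 have their lowest values in 60-day controls, and Usp14 has its lowest in 120-day G93A mice.

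At 120 days the captured material also differed in marker genes of other cells. The 12 microglia and macrophage markers summed to between 11899.2 and 21161 in G93A mice and between 4317.6 and 7131.6 in controls, with 10 of the 10 tested above 0 (median 1.65 log2 units) and 0 called. The 9 measured motor neuron markers summed to between 8747.9 and 16347.6 in G93A mice and between 14401.7 and 28673.8 in controls. Of the 7 motor neuron markers tested, 5 were below 0 and 0 were called. No microglial marker was at 0, and the lowest signal among the 12 was 2.8 (Itgam). The Gapdh ratio averaged 4.94 in G93A mice and 4.48 in controls at 120 days. The part of these measures in the lower ubiquitin gene signals was not tested.

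The mean signal of the 59 genes minus that of all tested genes gives 1 value per array. At 60 days it was 0.41, 0.35 and 0.24 log2 units in G93A mice, against 0.11, 0.42 and -0.20 in controls, which overlapped. At 90 days it was 0.33, 0.35 and 0.38 in G93A mice, against 0.25, 0.53 and 0.42 in controls, which overlapped as well. At 120 days it was -0.04, 0.01 and -0.003 in G93A mice, against 0.64, 0.26 and -0.04 in controls. The 3 older G93A arrays were alike and below every G93A array of 60 or 90 days, while the controls of the same age spread from the highest value of any array to -0.04. The pooled SD between replicates was 0.2.

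**Figure D4:**
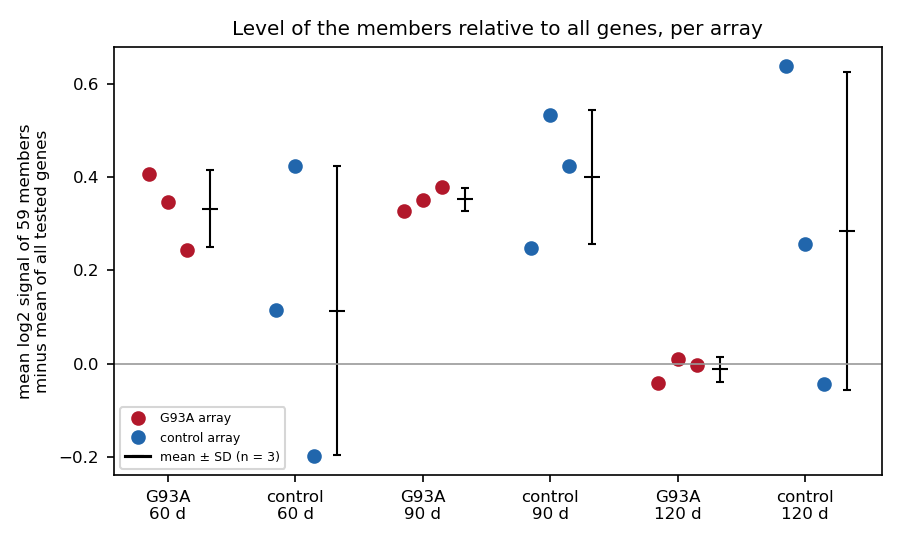
Mean log2 signal of the 59 tested genes minus the mean over all tested genes, per array, by group; bars are the mean ± SD of 3 arrays. The G93A arrays at 120 days lie close to 0, at -0.04, 0.01 and -0.003, and 1 control array at 120 days and 1 at 60 days lie at or below that level.

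A direct test asked whether the genotype difference itself moved with age. In the difference at 120 days minus that at 60 days, 3 of the 59 genes were called lower and 0 higher, beside 1.88% and 0.23% of all genes (2.11% in all). They were Usp9x at -4.22 ± 0.93 log2 units (limma adjusted p = 0.0211), Usp45 at -3.05 ± 0.73 (limma adjusted p = 0.0326) and Ube2d2a at -2.08 ± 0.53 (limma adjusted p = 0.0401). The change was below 0 in 10 genes at an unadjusted p below 0.05 and above 0 in none (16.9% and 0% of the list), beside 9.59% and 8.2% of all genes. The F test over the 3 ages called 0 of the 59, beside 0.399% of all genes, with 11 (18.6%) at an unadjusted p below 0.05, beside 13.2% of all genes.

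Usp45 signals at 60 days were 318.6, 224.8 and 89.3 in G93A mice, against 70.8, 113.1 and 32.3 in controls. At 120 days they were 50.1, 54.2 and 100.7 in G93A mice, against 343.6, 194.8 and 92.8 in controls. G93A values were mostly the higher ones at 60 days and the lower ones at 120 days, with 1 overlapping array pair in each. A second probe set of Usp45 gave 2.09 at 60 days and -1.43 at 120 days, and the dimmest gave -0.63 and 2.08.

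Usp9x signals at 120 days were 18.7, 134.9 and 105 in G93A mice, against 259.7, 168.6 and 89.4 in controls, with 1 G93A array far below the rest. The other tested probe sets of Usp9x gave genotype differences of 0.454 and -0.915 at 120 days. Ube2d2a signals at 60 days were 363.3, 519.1 and 373.1 in G93A mice, against 218.2, 334.3 and 159.5 in controls, so that its groups were apart in opposite directions at 60 and 120 days. Its other tested probe sets gave differences of 0.63, 2.77 and -0.57 at 60 days, and -0.59, 0.62 and -0.41 at 120 days. These 3 calls depended on the arrays and settings. With the hybridization controls as a covariate and with the mean over a gene's probe sets, the count was 0, and leaving out 1 array at a time gave 0 to 6. The count was 0 without G93A 60 days replicate 1, control 60 days replicate 3, G93A 120 days replicate 1 or control 120 days replicate 1.

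**Figure D5:**
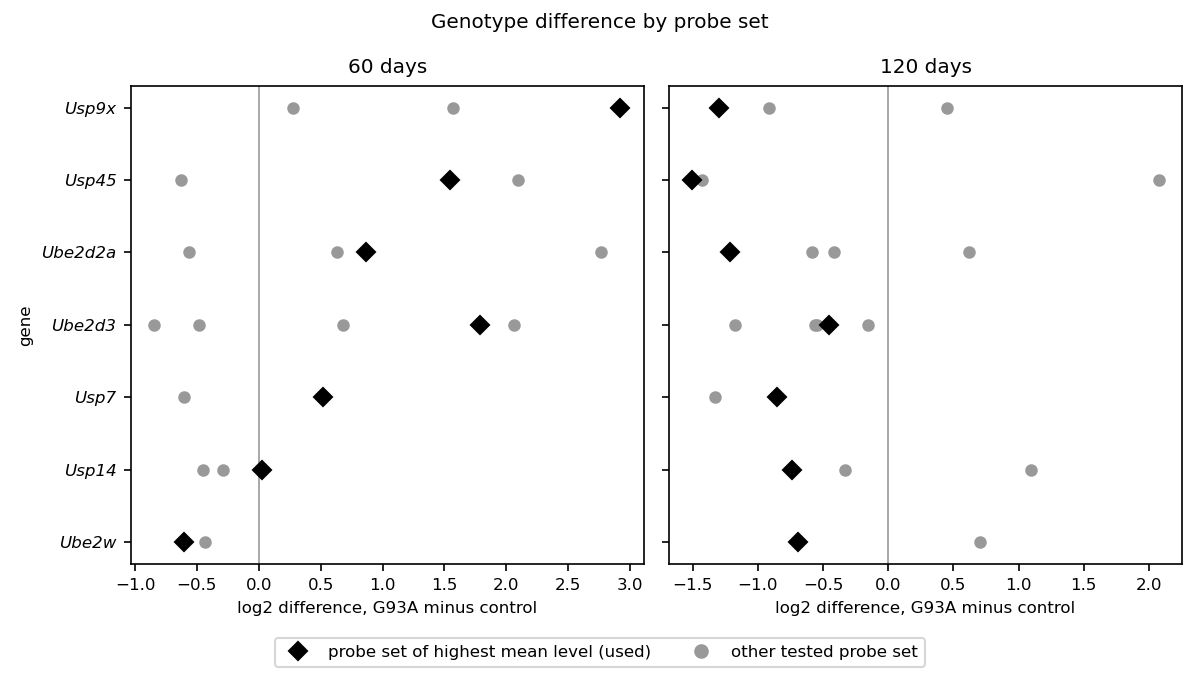
Log2 difference, G93A minus control, of every tested probe set of 7 genes at 60 days (left) and 120 days (right); diamonds are the probe set of highest mean level, which was used, and circles the others. For Usp9x at 60 days the used probe set gave 2.92 and the others 0.28 and 1.57, and for Usp45 at 120 days they gave -1.50, -1.43 and 2.08.

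Probe sets of the same gene often differed. Of the 22 genes with more than 1 tested probe set, all probe sets had the same sign in 7 genes at 60 days, 6 at 90 days and 10 at 120 days. For age, the sign was shared in 10 genes in controls and 11 in G93A mice. The genes with a single tested probe set include Ube2e1, Ube2e2, Ube2g1, Ube2g2, Ube2v1, Ube2v2 and Uchl1, for which no such check exists. By its suffix, the probe set used for Usp14 may also bind other transcripts, and those used for Usp7 and Usp45 are shared between similar transcripts.

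Averaged over the 3 ages, 0 of the 59 genes differed between 9 G93A and 9 control mice at the adjusted threshold, beside 0.02% of all genes. Only an unadjusted p below 0.05 was reached by 2 genes, Ube2w at -0.53 ± 0.22 log2 units and Usp33 at 1.40 ± 0.67, which is 3.39% of the list, beside 8.08% of all genes (4.56% higher and 3.52% lower). The second tested probe set of Ube2w gave -0.435, -0.576 and 0.708 at 60, 90 and 120 days. The remaining hydrolases gave no call in any comparison: Uchl5, a hydrolase that binds the proteasome, differed by 0.40 ± 0.56, 0.02 ± 0.56 and -0.38 ± 0.56 log2 units at 60, 90 and 120 days. Uchl4 differed by 1.12 ± 1.21, -0.87 ± 1.21 and -0.60 ± 1.21, with signals down to 2. Usp5, which takes apart free ubiquitin chains, differed by 0.15, -0.24 and 0.27 log2 units at the 3 ages, each with an SE of 0.75.

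Among the conjugating enzymes with general roles, several gave small differences. Ube2n, the active partner of Ube2v1 and Ube2v2, differed by -0.34, 0.25 and -0.58 log2 units at 60, 90 and 120 days (SE 0.49). Ube2k, a chain builder that binds huntingtin, differed by 0.23, 0.05 and -0.20 (SE 0.41). Ube2h differed by 0.08, -0.02 and -0.41 (SE 0.38), and Ube2r2, a Cdc34-type enzyme of cullin ligases, by -0.39, -0.38 and 0.20 (SE 0.34). Ube2a (-0.18, 0.16 and 0.24, SE 0.40), Ube2b (0.26, 0.68 and -0.40, SE 0.39) and Ube2d1 (-0.07, 0.34 and 0.01, SE 0.58) gave limma adjusted p-values of 0.728 or above at every age. A second tested probe set of Ube2a, of lower signal, gave 1.86, 0.19 and -1.07, with limma adjusted p-values of 0.162 or above. That of Ube2b gave 0.025, -0.637 and -1.796, with limma adjusted p-values of 0.394 or above. None of these genotype differences passed the test, which does not show that the levels were equal.

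The upstream and downstream steps were read from lists of related genes. Of 9 activating enzyme genes 5 had a value, and Uba3, the catalytic subunit of the enzyme that activates the ubiquitin-like protein Nedd8, was called at 60 days. Uba3 signals were 794.9, 634.7 and 316.1 in G93A mice at 60 days, against 226.3, 183.2 and 85.4 in controls. At 120 days they were 144.3, 109.8 and 114.6 in G93A mice, against 602.6, 328.4 and 226.9 in controls. The groups were apart at both ages, in opposite directions. Uba3 rose in G93A mice at 60 days by 1.83 ± 0.39 log2 units (limma adjusted p = 0.0254), and its genotype difference fell by 3.37 ± 0.56 between 60 and 120 days (limma adjusted p = 0.00276).

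Of 45 tested ubiquitin ligase genes, 0 were called for genotype at any age, and the median was 0.39 at 60 days and -0.28 at 120 days. Of 35 tested proteasome subunit genes, 0 were called for genotype at any age as well, and the median was 0.20 at 60 days and -0.49 at 120 days, with 30 of 35 below 0 at 120 days. In controls 5 of the 35 proteasome genes rose with age (14.3%) and 0 fell, beside 4.12% and 2.9% of all genes. In G93A mice 0 rose and 3 fell (8.57%), beside 1.13% of all genes in each direction. The direct test of the genotype difference at 120 minus 60 days called 2 of the 35 (5.71%), both lower, beside 1.88% of all genes lower. One of the 3 that fell in G93A mice was Psmd14, the deubiquitinase of the proteasome lid, at -1.49 ± 0.36 log2 units (limma adjusted p = 0.0332). Of 16 tested deubiquitinases and related proteases outside the Usp and Uchl families, 0 were called for genotype at any age. Their medians were -0.17 at 60 days and 0.10 at 120 days. This list is not of deubiquitinases only: it includes Senp2, Senp3 and Senp6, which act on the ubiquitin-like protein SUMO, and Cops5, which removes Nedd8. The 4 ubiquitin genes themselves were not analysed here.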

How the data were processed

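RNA of laser-captured lumbar motor neurons was measured on 18 one-colour arrays, 1 per mouse. The authors deposited linear signal intensity values, 1 per probe set and array, and the submitters' processing notes name MAS5. Its version and options were not stated. Groups were taken from the sample titles. Values below 1 were set to 1 (0.236% of 408420), and log2 was taken with no further normalization. A probe set was tested if it was above its array's median on at least 3 of the 18 arrays, which left 16565 of 22690 probe sets and 10020 genes. Limma 3.58.1 in R 4.3.3 fitted 6 group means with a trend in the moderated variance and 12 residual degrees of freedom. Tests were two-sided, Benjamini-Hochberg adjustment ran over the 16565 probe sets per comparison, and ± is the standard error of the log2 difference unless stated as SD. The fit was tested on simulated data. Gene symbols came from the platform annotation: 20380 probe sets had 1 symbol, 691 had several, 1555 had none and 64 were controls. Among the probe sets with several symbols, 8 named a gene of these families and were left out.

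The precision is limited by the number of arrays, and detection calls were not used here. Mice with the same sample number at an age have different identifiers in the labels. The deviations of same-numbered arrays from their group means correlated between -0.12 and 0.06, so the numbers do not pair the samples. The members and gene lists were chosen with earlier results of these data known. The rule for named genes took every gene past the adjusted threshold, up to 5 per direction of smallest p with no overlap between groups, and 28 genes of general interest. Usp43, Uba3 and Psmd14 were named beside it after their values were seen. Usp3, Usp34 and Usp47 were also named outside the rule, in the full lists of genes without overlap. Alternatives varied the pseudocount, scaling, filter, arrays, covariates, moderation, replicate block and probe set choice. Promoters are from RefSeq (GRCm38.p6), which held 52 of the 69 genes.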

Additional observations from a re-analysis of the deposited data

Results flagged for a closer look

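The F test of the genotype difference over the 3 ages called 0 of the 59 genes (lowest limma adjusted p = 0.0669), beside 0.399% of all genes. A direct test of the change (G93A minus control at 120 days, minus the same at 60 days) called 3 of the 59 (5.08%), beside 2.11% of all genes. For Usp9x the change was -4.22 log2 units (limma adjusted p = 0.0211), for Usp45 it was -3.05 (0.0326) and for Ube2d2a it was -2.08 (0.0401). In the probe sets used, all 3 differences were above 0 at 60 days and below 0 at 120 days. The changes between 60 and 90 days (limma adjusted p from 0.879 to 0.927) and between 90 and 120 days (0.489 to 0.626) were not called. The direction of the change was the same in all 29 alternatives for each gene, while the call was lost in 8 of them for Usp9x, 11 for Usp45 and 17 for Ube2d2a. Other tested probe sets did not all change sign with age. For Usp9x they gave 0.28 and 1.57 at 60 days, and 0.454 and -0.915 at 120 days. For Usp45 they gave 2.09 and -0.63, and then -1.43 and 2.08. For Ube2d2a they gave 0.63, 2.77 and -0.57, and then -0.59, 0.62 and -0.41. The hybridization-control level differed between G93A and control arrays at 60 days (9.47 and 11.15 log2 units) and was close at 120 days (11.62 and 11.64). With this level as a covariate the changes were -3.21, -2.32 and -2.02, with adjusted p-values of 0.183, 0.236 and 0.183, in the fits named Usp9x, genotype difference at 120 minus 60 days, Usp45, genotype difference at 120 minus 60 days, and Ube2d2a, genotype difference at 120 minus 60 days. The part of the array quality in these results was not tested further.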

How the results depend on the processing

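The counts of called genes depend on the setting. A fit without the 2 least correlated arrays (chosen after seeing the data) leaves 1 control array at 60 days, so its counts are not given. At 60 days the count of 1 became 2 with quantile normalization and 0 with only the compared groups' arrays, either covariate, no variance trend or the mean over probe sets. Over the 6 groups the 9 calls became 5 without the filter, 2 with the hybridization covariate, 5 with the Gapdh covariate, 0 without the trend and 3 with the mean over probe sets. For age in controls the 6 calls became 2 with only the compared arrays, 0 with the Gapdh covariate, 2 without the trend and 3 with the mean over probe sets. For age in G93A mice the count of 0 became 1 with the mean over probe sets, and for the F test of the change with age it became 1 with a pseudocount of 16 and 1 with arrays centred on their median. For the change between 120 and 60 days the 3 calls became 6 after centring and 0 with the hybridization covariate, no trend or the mean over probe sets. Leaving out 1 of the 18 arrays at a time gave 0 to 2 calls at 60 days, 0 at 90 days, 0 to 1 at 120 days, 0 to 3 for the F test, 5 to 10 over the 6 groups, 0 to 1 for age in G93A mice, 2 to 9 for age in controls and 0 to 6 for the change. The causes of these shifts were not tested. Centring moved the median difference to 0.34 at 60 days and -0.63 at 120 days. The numbers do not pair the samples, and a replicate block gave 2 calls at 60 days, none of the other counts moved by over 1.5 times with it, and it could not be fitted for the age contrasts or over the 6 groups. Of 2229 values of named genes, 2027 kept direction and side of the threshold, 171 lost the call, 29 gained it and 2 reversed: Usp9y, G93A minus control at 90 days, was 0.29 with the Gapdh covariate, and Usp14, G93A minus control at 120 days, was 0.007 with the mean over probe sets. Probe sets below the array median, such as Usp9x on 2 of the 3 control arrays at 60 days, limit what the arrays resolve.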
